A study of Mus musculus with 6 samples.

Results

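Solute carriers are the membrane proteins that move amino acids, sugars, ions, metals, nucleotides and vitamins across the plasma membrane and the membranes of organelles. The genes described here are those measured by probe sets whose platform annotation gives 1 mouse gene symbol beginning with Slc and a number. Slc2a1, Slc2a3, Slc16a1, Slc16a3, Slc7a11 and Slc40a1 (carriers of glucose, lactate and pyruvate, cystine, and exported iron) were left out. This rule gave 256 genes of 48 families on 407 probe sets, out of 12393 genes measured with 1 symbol, and used no measured value.

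The series compares CD4+CD25+ regulatory T cells (Tregs), separated magnetically, from wild type (WT) C57BL6 mice and from fl-HDAC11/Foxp3cre mice, called HDAC11-/- below, to ask which genes depend on the histone deacetylase HDAC11. There were 3 arrays for each genotype, each of a sample described as independent, although the labels do not say whether each was a separate mouse, so the p-values here speak only to the spread among these samples. In the HDAC11-/- mice the Cre recombinase is expressed from the Foxp3 locus together with a fluorescent protein, and deletion is directed at cells that express Foxp3. The WT mice carry neither the floxed allele nor Cre by their labels, so effects of Cre and of HDAC11 loss cannot be told apart, and the labels give neither age nor sex.

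T cells that leave rest raise their intake of amino acids, of which the leucine carrier Slc7a5 with its partner Slc3a2 is the best known. Mitochondrial carriers of the Slc25 family join the cytosol to the mitochondrial matrix, and zinc carriers of the Slc39 family bring zinc into the cytosol while those of the Slc30 family take it out. Tregs are known for drawing more of their energy from mitochondrial oxidation than effector T cells do.

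Values are log2 expression after robust multiarray averaging (RMA), 1 per probe set and array, and each gene is read from its brightest probe set, judged by the mean of all 6 arrays. A gene was called if limma gave an adjusted p under 0.05 over all probe sets and the genotypes differed at least 1.5-fold. The words rose and fell are used for any gene past that adjusted p, and called is kept for genes that also passed the fold threshold. A gene counts as above the bacterial controls when its mean over the 6 arrays exceeds that of the brightest bacterial control probe set, which lay between 5.27 and 5.48 in WT and between 5.06 and 5.28 in HDAC11-/-. Of the 256 genes, 161 were above the controls by this mean, 150 of them on all 6 arrays, and 95 were not. A probe set's level depends on its probes, so levels are compared between genotypes. Calling a gene the brightest of its class refers to probe signal, which served to choose genes to name, and ranks no expression.

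Array medians ran from 6.74 to 6.77, and no array stood apart within its genotype. For Hdac11 itself the WT arrays gave 6.31, 6.36 and 6.53 and the HDAC11-/- arrays 6.36, 6.28 and 6.22, with a limma adjusted p of 0.222 for a log2 difference of -0.12. Where its probes lie against the deleted part is not known here, so this does not check the labels. Of 7 T cell and Treg markers none was called, and the Foxp3 probe set lay below the bacterial controls in both genotypes. Ctla4 rose by 0.50, while Cd4 fell by 0.32 and Ikzf2 by 0.35, and the other markers of this list did not pass the adjusted p. Marker lists of other cells differed as well. Dendritic cell markers had a mean of 8.55 to 8.70 in WT and 7.79 to 7.84 in HDAC11-/- with 3 of 5 called lower. These were the antigen presentation genes H2-Aa (log2 fold change -1.60), H2-Ab1 (-1.43) and Cd74 (-0.79). Itgax had -0.39 and was not called, and Flt3 had 0.11. B cell markers had 6.79 to 6.91 and 6.02 to 6.09 with 2 of 4 called lower, Pax5 lying below the controls in both genotypes. CD8 T and NK cell markers had 7.70 to 7.79 and 7.46 to 7.51 with 1 of 5 called lower, Fcer1g at -1.32, whereas Cd8b1 rose by 0.42, Cd8a had -0.04 and the list median was -0.04. Neutrophil markers had 4.78 to 4.92 and 5.72 to 5.78 with 2 of 5 called higher. Monocyte and macrophage markers had 5.36 to 5.46 and 5.60 to 5.77 with 1 of 5 called higher, Adgre1 lying below the controls in both. On every WT array S100a8, S100a9, Ngp, Lyz2 and C1qa lay at or below the controls. The called S100a8, S100a9 and C1qa were thus higher by at least 1.44-fold, 1.25-fold and 1.16-fold as bounds. The part of these cells in the results below was not tested, and in such bulk samples fewer cells of a type and less RNA per cell cannot be told apart.

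Of the 256 genes 4 were called higher in HDAC11-/- Tregs, namely the ornithine carrier Slc25a15, the zinc importer Slc39a6, the large amino acid carrier Slc7a5 and the pyrimidine nucleotide carrier Slc25a33. The 7 called lower were Slc22a17, Slc15a2, Slc17a9, Slc6a13, Slc25a28, Slc20a1 and Slc9b2. These are single genes, and relatives with the same kind of substrate did not always move with them. Over all 12393 genes 3.46% were called higher and 3.72% lower, and neither count of carriers reached that share of the 256. By adjusted p alone 35 rose and 67 fell, where 22.9% of all genes rose and 23.2% fell. The 11 called genes were all among the 161 above the controls. In that group 34 rose and 50 fell. Of the 8636 genes above the controls, 4.69% were called higher and 4.78% lower, and 31.6% rose and 25.8% fell. These shares are the background for the class counts below. The arrays of the 2 genotypes did not overlap for 104 of the 161 carriers and for 6089 of the 8636 genes, so such separation was common. The median log2 fold change was -0.06 over the 161 carriers and 0.02 over all genes above the controls. Centred on 12 reference genes, which sat 0.15 higher in HDAC11-/- on the log2 scale, 2 carriers were called higher and 16 lower, and among the 161 above the controls 17 rose and 85 fell. With the same centring 266 of all 12393 genes were called higher and 916 lower, and of the 8636 above the controls 1515 rose and 3755 fell. The balance of directions is therefore given relative to the RMA scale.

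Dim carriers leaned lower, as dim genes did at large. Of the 95 carriers not above the controls, 1 rose and 17 fell with a median of -0.15, and of all 3757 genes not above the controls 109 rose and 637 fell with a median of -0.11. The bacterial controls themselves differed by -0.02 on average. The brightest of them, which sets the cut, was lower in HDAC11-/- (5.06 to 5.28) than in WT (5.27 to 5.48), with ranges that just touch. Nothing further is drawn from these 95 genes.

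**Figure D1:**
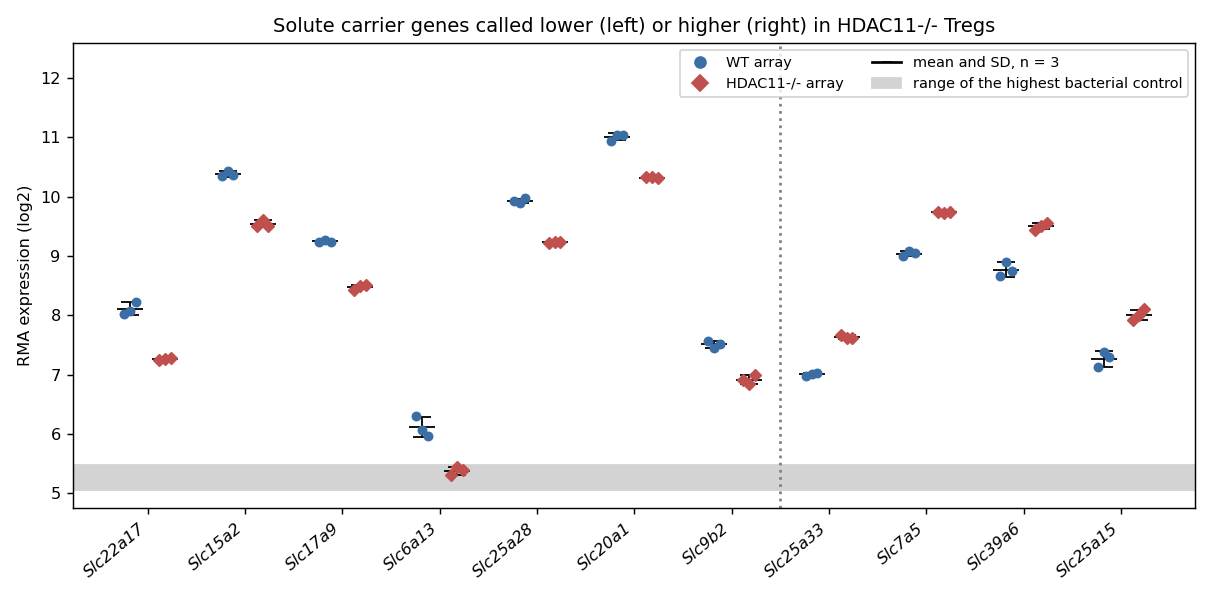
RMA expression (log2, vertical axis) of the 11 solute carrier genes called lower (left of the dotted line) or higher (right) in HDAC11-/- Tregs, with a circle for each WT array, a diamond for each HDAC11-/- array, bars for mean and SD (n = 3), and a grey band for the range of the brightest bacterial control. The genotypes do not overlap for any of the 11 genes, nor for 6089 of all 8636 genes above the controls. The HDAC11-/- arrays of Slc6a13, at 5.30 to 5.44, lie inside the band.

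Mitochondrial carriers were the largest class among genes above the controls, with 32 of 33 measured. Of these 9.4% were called, near the 9.47% of all genes above the controls. The class held 3 of the 11 called genes. The 300 bases around the annotated start of each, 250 before and 50 after it, are shown because Slc25a15 and Slc25a33, called higher, share a sequence motif that Slc25a28, called lower, lacks. They are RefSeq promoter windows on build GRCm38.p6, each on the minus strand and written 5′ to 3′ along the gene, at chr8:22398228-22398527, chr4:149774218-149774517 and chr19:43674832-43675131 in that order. Capitals mark CACGTG, the palindromic E-box bound by Myc and related factors, which reads the same on both strands.
Slc25a15: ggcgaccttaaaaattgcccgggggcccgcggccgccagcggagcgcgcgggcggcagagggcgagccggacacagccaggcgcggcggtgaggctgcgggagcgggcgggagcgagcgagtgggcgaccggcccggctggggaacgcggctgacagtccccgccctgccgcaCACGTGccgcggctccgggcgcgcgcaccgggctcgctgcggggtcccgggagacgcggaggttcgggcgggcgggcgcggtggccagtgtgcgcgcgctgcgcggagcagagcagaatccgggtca
Slc25a33: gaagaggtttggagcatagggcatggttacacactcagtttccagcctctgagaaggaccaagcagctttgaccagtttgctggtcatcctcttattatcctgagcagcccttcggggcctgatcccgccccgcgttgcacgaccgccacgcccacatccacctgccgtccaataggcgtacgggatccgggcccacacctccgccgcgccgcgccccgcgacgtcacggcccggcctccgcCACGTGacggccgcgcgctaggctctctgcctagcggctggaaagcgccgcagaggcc
Slc25a28: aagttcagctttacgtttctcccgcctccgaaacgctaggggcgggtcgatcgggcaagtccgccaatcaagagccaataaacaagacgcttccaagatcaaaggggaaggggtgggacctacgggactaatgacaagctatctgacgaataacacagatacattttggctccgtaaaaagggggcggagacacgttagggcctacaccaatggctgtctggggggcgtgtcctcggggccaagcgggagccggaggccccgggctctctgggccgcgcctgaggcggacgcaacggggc
The E-box began at position -77 of Slc25a15 and at position -8 of Slc25a33, counted back from the start. A second annotated start of Slc25a15, at chr8:22398572-22398871, held none. Among the other called genes with a window (1 or more for Slc15a2, Slc20a1, Slc22a17, Slc6a13 and Slc9b2) only Slc20a1, called lower, held an E-box, with 2 copies in 1 of its 2 windows. Slc7a5, Slc39a6 and Slc17a9 had no window, so only 2 of the 4 genes called higher and 6 of the 7 called lower could be looked at. Windows were matched for 202 of the 256 carriers, and 11.1% of their 270 windows held CACGTG against 7.15% of all 32851 windows. The AP-1 motif TGANTCA was in none of the 3 windows of genes called higher and none of the 9 of genes called lower. It was in 6.67% of the carriers' windows and in 7.81% of all, and so few windows cannot show a difference from these shares. A match describes letters in these windows and shows no binding.

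Slc25a15, the ornithine carrier of the mitochondrial inner membrane, had levels of 7.12, 7.37 and 7.30 in WT and 7.92, 8.01 and 8.10 in HDAC11-/-. Every HDAC11-/- array lay above every WT array, with a log2 fold change of 0.74 ± 0.08 (SE, limma adjusted p = 0.000621, n = 3 each), or 1.68-fold. Slc25a33, which carries pyrimidine nucleotides into mitochondria, had 6.97, 7.02 and 7.03 in WT and 7.67, 7.61 and 7.61 in HDAC11-/-. Again no arrays overlapped, and the log2 fold change was 0.63 ± 0.04 (limma adjusted p = 0.000118). Centred on the reference genes its log2 fold change was 0.48, under the fold threshold. Slc25a28, mitoferrin-2, which brings iron into mitochondria, had 9.92, 9.89 and 9.97 in WT and 9.22, 9.23 and 9.24 in HDAC11-/-. The 6 arrays separated fully by genotype, and its log2 fold change was -0.70 ± 0.04 (limma adjusted p = 7.65e-05). Its only probe set ends in _a_at. It was not tested when probe sets ending in _a_at, _s_at or _x_at were left out.

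Counting the called genes, 7 mitochondrial carriers rose and 10 fell, or 22% and 31% of those above the controls, with a class median of 0.05. Over all genes above the controls 31.6% rose and 25.8% fell. The carriers that rose include Slc25a5 and Slc25a4, the ADP/ATP exchangers, with log2 fold changes of 0.36 and 0.28. They also include Slc25a20, the acylcarnitine carrier of fatty acid oxidation, at 0.41, Slc25a13, an aspartate/glutamate exchanger of the malate-aspartate shuttle, at 0.44, and Slc25a39, a glutathione carrier, at 0.21. Slc25a20 measured 9.70, 9.66 and 9.74 in WT and 10.11 on each HDAC11-/- array. Among those that fell were Slc25a37, mitoferrin-1, at -0.30 and Slc25a38, the glycine carrier of haem synthesis, at -0.27, so both mitoferrins fell. Slc25a42, which carries coenzyme A, was at -0.42, Slc25a22, a glutamate carrier, at -0.41, and Slc25a23, an ATP-Mg/phosphate carrier, at -0.36. Slc25a53, Slc25a45 and Slc25a29, a carrier of basic amino acids, had -0.48, -0.41 and -0.27. The phosphate carrier Slc25a3, with Slc25a5 the brightest of the class, had a log2 fold change of 0.05 (95% interval -0.05 to 0.15) and did not pass the test.

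Slc25a33 and Slc25a36, the pair of pyrimidine nucleotide carriers, moved in opposite directions. Slc25a36 measured 10.98, 11.02 and 10.98 in WT and 10.54, 10.58 and 10.59 in HDAC11-/-, and fell by 0.42 on the log2 scale (limma adjusted p = 0.000494). Within an array, the log2 difference between Slc25a33 and Slc25a36 was greater by 1.05 in HDAC11-/-, with no overlap between genotypes (exact permutation test, two-sided, p = 0.1, the smallest that 3 against 3 arrays allow). Each gene's arrays already separated by genotype, in opposite directions, so this p was fixed in advance and adds no support. The pair was chosen after its values were seen, and a difference within an array does not depend on how arrays are centred.

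**Figure D2:**
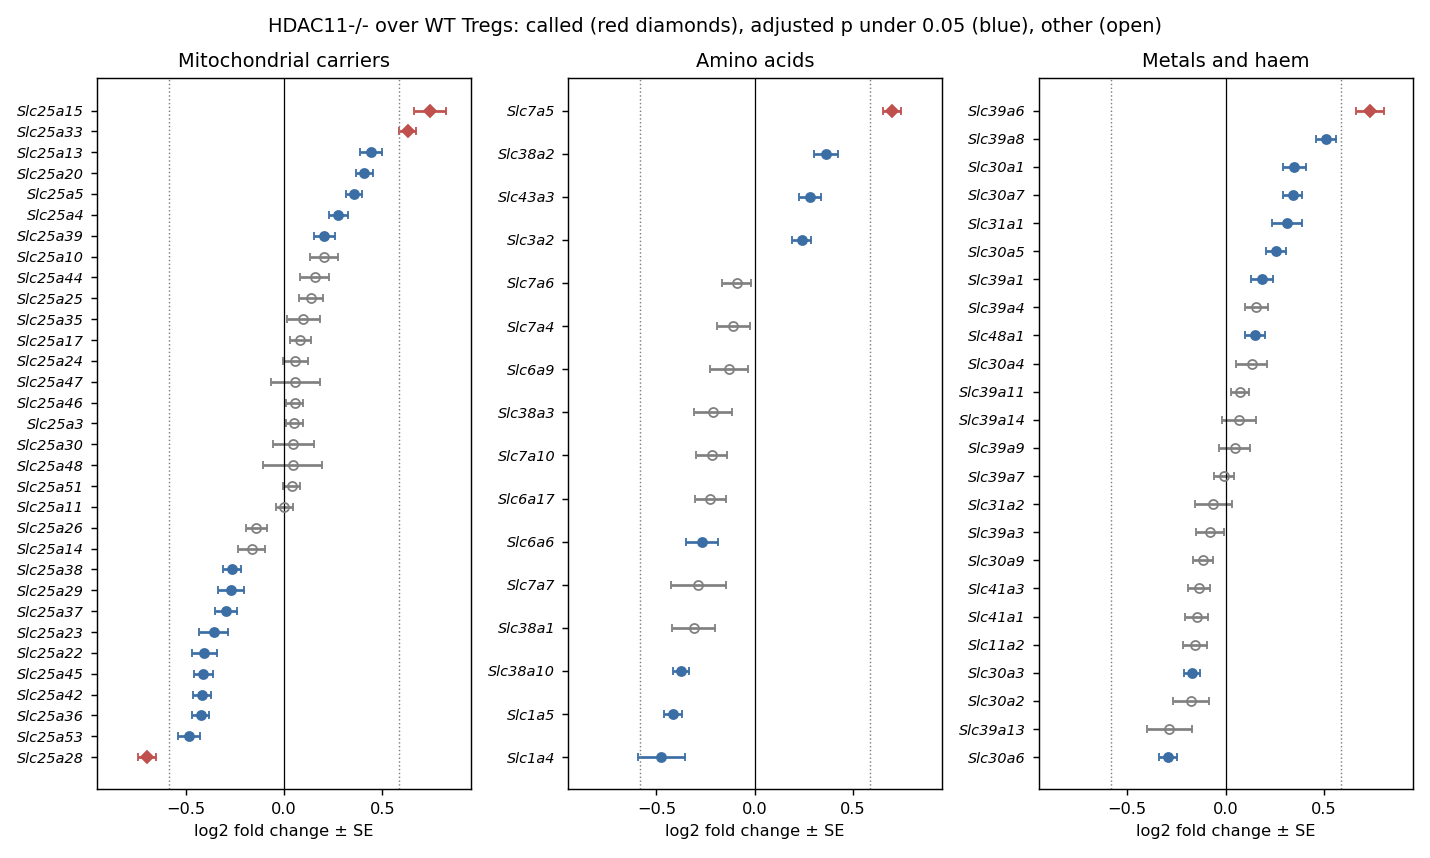
Log2 fold change of HDAC11-/- over WT (horizontal axis, bars ± SE from limma) for each mitochondrial carrier, amino acid carrier and metal or haem carrier above the bacterial controls, 1 gene a line, with called genes as red diamonds, other genes past the adjusted p in blue, and the rest open. Mitochondrial carriers run from -0.70 for Slc25a28 to 0.74 for Slc25a15, with genes past the adjusted p on both sides of 0.

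Of 36 amino acid carriers 16 were above the controls, and Slc7a5 stood alone as called. Slc7a5, which brings leucine and other large neutral amino acids into the cell, had 9.0, 9.08 and 9.05 in WT and 9.74, 9.73 and 9.75 in HDAC11-/-. The arrays of each genotype lay close together and the genotypes did not overlap. The log2 fold change was 0.70 ± 0.04 (limma adjusted p = 7.87e-05), or 1.62-fold, and 0.55, under the fold threshold, when centred on the reference genes. Its heavy chain Slc3a2 had 10.26, 10.15 and 10.20 in WT and 10.46, 10.41 and 10.45 in HDAC11-/-. It rose by 0.24 ± 0.05 (limma adjusted p = 0.00735), less than Slc7a5, while Slc7a6, another light chain that pairs with Slc3a2, had -0.09 (95% interval -0.27 to 0.09) and did not pass. The light chains Slc7a7 and Slc7a10 had -0.29 and -0.22 and did not pass either (limma adjusted p = 0.138 and 0.0572), and Slc7a8 was not above the controls.

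In the class as a whole 4 rose and 4 fell by their brightest probe sets, with a median of -0.22. The 4 that fell include Slc1a4, whose probe sets disagree. Slc38a2, a sodium-coupled carrier of glutamine and alanine, rose from 11.04, 11.11 and 10.91 to 11.40, 11.40 and 11.34, a log2 fold change of 0.36. Slc43a3 rose by 0.28 and was placed here by its family number, although it is known to carry purine nucleobases. Slc1a5, a glutamine carrier, fell from 9.87, 9.88 and 9.89 to 9.49, 9.40 and 9.50, a log2 fold change of -0.42. Slc38a10 had -0.37 and the taurine carrier Slc6a6 -0.27, both past the adjusted p. Slc1a4, a relative of Slc1a5 near the controls, had -0.48 at its brightest probe set but 0.25 and 0.23 at 2 others of nearly the same level, so no direction is read for it. Slc38a1, the closest relative of Slc38a2 by name, had -0.31 with a limma adjusted p of 0.0565. The difference of Slc38a2 over Slc38a1 within an array was greater by 0.67 in HDAC11-/- (exact permutation test, two-sided, p = 0.1, the smallest possible here and fixed by the separation of both genes, pair chosen after its values were seen). The glutamine carriers therefore did not move together. Centred on the reference genes, 2 amino acid carriers rose and 12 fell, and the class median was -0.36 where that of all genes above the controls was -0.13. Of those 8636 genes, 1515 rose and 3755 fell.

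Metal and haem carriers were nearly all above the controls (24 of 26), and 8 rose while 2 fell, with a median of 0.06. The 8 of 24 that rose are close to the 31.6% of all genes above the controls that did. Slc39a6, a zinc importer of the plasma membrane, had 8.66, 8.90 and 8.75 in WT and 9.45, 9.51 and 9.55 in HDAC11-/-. No HDAC11-/- array reached down to the WT range, and the log2 fold change was 0.73 ± 0.07 (limma adjusted p = 0.000416), or 1.66-fold. Slc39a8, a zinc and manganese importer, rose from 6.15, 6.24 and 6.08 to 6.67, 6.67 and 6.66, a log2 fold change of 0.51 that stayed under the fold threshold. Of the 10 zinc importers above the controls 3 rose and none fell, the other being Slc39a1 at 0.18. Slc39a7, the brightest, had -0.01 (95% interval -0.12 to 0.11).

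Of the 8 zinc exporters above the controls 3 rose and 2 fell. Slc30a1, the exporter of the plasma membrane, rose by 0.35, and Slc30a5 and Slc30a7, which load zinc into the secretory pathway, by 0.25 and 0.34. Slc30a6, the partner of Slc30a5, fell by 0.29, and Slc30a3 had -0.17. The copper importer Slc31a1 rose by 0.31 and the haem carrier Slc48a1 by 0.15. The iron importer Slc11a2 had -0.16 at its brightest probe set (limma adjusted p = 0.0713) but 0.53 at another (limma adjusted p = 0.000988). The magnesium carrier Slc41a1 had -0.15 and did not pass (limma adjusted p = 0.0848). Centred on the reference genes the balance of metal carriers turned, with 4 rising, 10 falling and a median of -0.09, while Slc39a6 kept its call. All 8636 genes above the controls turned likewise, with 1515 rising, 3755 falling and a median of -0.13.

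Among 19 carriers of inorganic ions and of protons above the controls 9 fell and 3 rose, with a median of -0.10, where 25.8% of all genes above the controls fell and 31.6% rose, a difference that was not tested. Both called genes of the class were lower. Slc20a1, a sodium-phosphate importer, had 10.94, 11.05 and 11.04 in WT and 10.33, 10.33 and 10.31 in HDAC11-/-. The 3 HDAC11-/- arrays were nearly equal and all below WT, with a log2 fold change of -0.69 ± 0.05 (limma adjusted p = 0.000113). Its brightest probe set also ends in _a_at. The other, without such a suffix, had a larger fall, -0.85 ± 0.29, with a limma adjusted p of 0.054. Its relative Slc20a2 fell by its brightest probe set, from 7.75, 7.55 and 7.44 to 7.14, 7.17 and 7.14, a log2 fold change of -0.43, although its other probe set, also above the controls, had 0.07. The window of Slc20a1 with both E-boxes, on the plus strand at chr2:129198523-129198822, is shown because no other window of the genes called lower held the motif.
Slc20a1: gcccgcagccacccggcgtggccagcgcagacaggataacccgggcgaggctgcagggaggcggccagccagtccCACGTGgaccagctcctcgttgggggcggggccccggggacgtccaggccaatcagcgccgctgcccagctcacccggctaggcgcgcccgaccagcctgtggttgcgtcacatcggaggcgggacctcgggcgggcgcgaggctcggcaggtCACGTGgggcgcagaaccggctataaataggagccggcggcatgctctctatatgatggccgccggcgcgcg
Slc9b2, a sodium-proton exchanger, had 7.57, 7.45 and 7.52 in WT and 6.90, 6.84 and 7.00 in HDAC11-/-, without overlap. Its log2 fold change was -0.60 ± 0.06 (limma adjusted p = 0.000455), just past the fold threshold, and it was not called without WT replicate 1 (-0.57), without HDAC11-/- replicate 2 (-0.56) or when centred on the bacterial controls (-0.57). Slc9a8, a sodium-proton exchanger of endomembranes, fell by 0.50 and Slc12a7, a potassium-chloride exporter, by 0.47, whereas Slc12a2, which brings sodium, potassium and chloride in, rose by 0.35. The bicarbonate and anion exchangers Slc4a2 and Slc26a6 fell by 0.36 and 0.27.

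Slc4a1, the anion exchanger of red cells, was the one carrier above the controls by its mean whose arrays of 1 genotype all lay at or below them. It had 5.07, 5.08 and 5.18 in WT and 5.51, 5.83 and 5.57 in HDAC11-/-, which gives at least 1.19-fold higher as a bound (limma adjusted p = 0.00364 for the measured difference). Without HDAC11-/- replicate 1 it was called higher. The 3 erythroid markers measured had means of 4.80 to 4.89 in WT and 4.68 to 5.06 in HDAC11-/-, with none called and with Hba-a1 and Epb42 below the controls in both genotypes.

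The peptide carrier of the plasma membrane fell while those of endolysosomes rose. Slc15a2, which takes di- and tripeptides up at the plasma membrane, had 10.34, 10.44 and 10.37 in WT and 9.51, 9.61 and 9.51 in HDAC11-/-. All 3 HDAC11-/- arrays lay below WT, and the log2 fold change was -0.84 ± 0.05 (limma adjusted p = 7.20e-05), or 1.79-fold lower. Slc15a4 and Slc15a3, which export histidine and peptides from endolysosomes, rose by 0.49 and 0.35. Slc15a4 had 7.51, 7.68 and 7.74 in WT and 8.12, 8.10 and 8.16 in HDAC11-/-. Its difference to Slc15a2 within an array was greater by 1.33 in HDAC11-/- (exact permutation test, two-sided, p = 0.1, the smallest possible here and fixed by the separation of both genes, pair chosen after its values were seen). Among the urea carriers filed with them, Slc14a1 rose by 0.19 and Slc14a2 fell by 0.17. The median of the 5 genes was 0.19. Beside these, the dendritic cell list had a median of -0.79, which is the value of Cd74. The monocyte and macrophage list had 0.37 and the neutrophil list 0.43, both with genes at or below the controls in WT. The part of these cells in either direction was not tested.

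Slc22a17 had the largest fall of the 11, if only just ahead of Slc15a2. It is a receptor that takes up the iron-binding protein lipocalin-2, though its family carries organic ions. Its levels were 8.02, 8.08 and 8.23 in WT and 7.24, 7.26 and 7.28 in HDAC11-/-, well apart, with a log2 fold change of -0.85 ± 0.06 (limma adjusted p = 0.000152), or 1.80-fold lower. Its only probe set also ends in _a_at and was not tested when that suffix was left out. The carnitine importer Slc22a5 fell from 9.96, 9.99 and 9.99 to 9.44, 9.47 and 9.51, a log2 fold change of -0.51 under the fold threshold. Slc22a12, a urate carrier, and Slc22a18 fell by 0.30 and 0.29. With Slc22a17 counted by its family, 4 of the 5 genes of this class above the controls fell and none rose. The class median was -0.30. Of all genes above the controls 25.8% fell and 31.6% rose, and the difference of this small class was not tested.

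Only 3 of 13 carriers of neurotransmitters or of vesicle filling were above the controls, and 2 of them were called lower. Slc17a9, which loads ATP into vesicles for release, had 9.24, 9.26 and 9.23 in WT and 8.43, 8.49 and 8.50 in HDAC11-/-. Its arrays were among the tightest, and its log2 fold change of -0.77 ± 0.04 had the smallest adjusted p of all 256 genes (limma, 5.07e-05). Slc6a13, a plasma membrane carrier of GABA and taurine, had 6.30, 6.07 and 5.97 in WT and 5.30, 5.44 and 5.38 in HDAC11-/-, within the range of the controls over all arrays. Its log2 fold change was -0.74 ± 0.09 (limma adjusted p = 0.00103), a size that nearness to background makes uncertain.

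**Figure D3:**
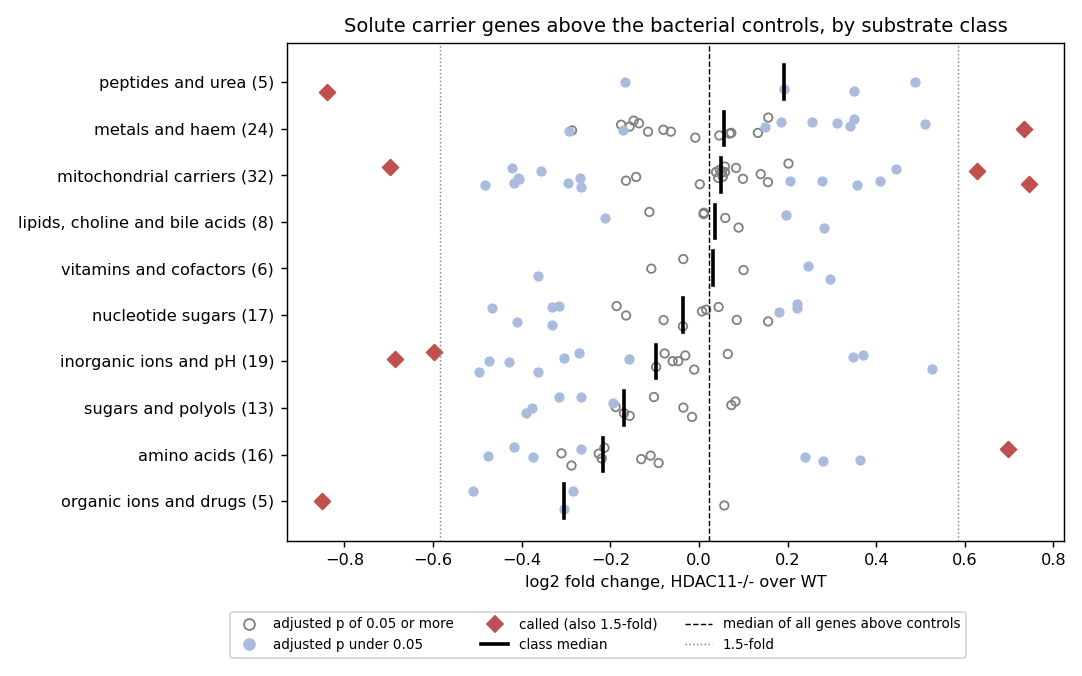
Log2 fold change of HDAC11-/- over WT (horizontal axis) for carriers above the bacterial controls in the 10 substrate classes with 5 or more of them, with diamonds for called genes, filled circles for others past the adjusted p, open circles for the rest, thick bars for class medians and a dashed line for the median of all genes above the controls (0.02). Class medians run from -0.30 for organic ions to 0.19 for peptides and urea.

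Sugar carriers had no member that rose, while 5 of the 13 above the controls fell, with a median of -0.17. The insulin-responsive glucose carrier Slc2a4 had 7.16, 7.24 and 7.25 in WT and 6.86, 6.83 and 6.80 in HDAC11-/-, a log2 fold change of -0.39 ± 0.05 (limma adjusted p = 0.000935). Slc37a1, a sugar-phosphate exchanger, had -0.38 and Slc50a1, a glucose carrier, -0.32, and these were the 2 brightest of the class. Slc2a5, the fructose carrier, at -0.27, and Slc2a8 at -0.19 complete the 5, with Slc2a5 near the controls. The glucose carriers left out by the rule are not part of these counts.

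Carriers of nucleotide sugars to the Golgi had no called member, and 3 rose and 5 fell among 17 above the controls, with a median of -0.04. The CMP-sialic acid carrier Slc35a1 fell from 9.39, 9.45 and 9.45 to 8.97, 8.89 and 9.03, a log2 fold change of -0.47, and the UDP-galactose carrier Slc35a2 had -0.32. The sulphate donor PAPS has a pair of Golgi carriers that moved apart, with Slc35b3 at -0.41 and Slc35b2 at 0.22. Slc35a4 and Slc35e1 rose by 0.22 and 0.18, and Slc35b1 had -0.04 (95% interval -0.15 to 0.08).

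Vitamin carriers were small in number. The folate carrier Slc19a1 rose from 9.12, 9.17 and 9.29 to 9.48, 9.42 and 9.42, a log2 fold change of 0.25, the thiamine carrier Slc19a2 rose by 0.30, and the riboflavin carrier Slc52a3 fell by 0.36. The ascorbate carrier Slc23a2 had -0.04 (95% interval -0.18 to 0.11), and the median over 6 genes was 0.03. Among 8 carriers of lipids, choline and bile acids 2 rose and 1 fell, with a median of 0.04. Slc10a3 rose by 0.28 and Slc33a1, which carries acetyl-CoA into the endoplasmic reticulum, by 0.20, while Slc10a6 had -0.21. The choline carriers Slc44a1 and Slc44a2 had 0.01 (95% interval -0.10 to 0.12) and 0.06 (-0.08 to 0.20). The other 2 probe sets of Slc44a2, both above the controls, fell by 0.58 and 0.17 (limma adjusted p = 0.000564 and 0.0196).

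The class medians do not all keep their sign when arrays are centred in another way. Centring on the reference genes lowers every log2 fold change by the same 0.15. The medians of mitochondrial carriers (-0.10), metal carriers (-0.09), lipid carriers (-0.11) and vitamin carriers (-0.12) therefore turned negative, and that of peptide and urea carriers fell to 0.04. The median of all genes above the controls was then -0.13, and the distance of each class from it did not change. Among the 10 classes with 5 or more genes, and relative to the median of all genes above the controls on the RMA scale, organic ion, amino acid and sugar carriers lay lowest, by -0.33, -0.24 and -0.19, and peptide and urea carriers highest, by 0.17. No test was run on a class.

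For 96 of the 256 carriers there were several probe sets, and for 7 of these the probe sets differed in call. The second probe sets of Slc15a2 (log2 fold change 0.12) and of Slc25a15 (0.40) had means of 4.53 and 4.83, below the controls. The second of Slc39a6, at a mean of 6.82, had 0.08, so the rise of Slc39a6 rests on 1 of 2 probe sets above the controls. The second of Slc20a1, given above, had the same direction. With the median over a gene's probe sets in place of the brightest, Slc25a15 (0.57), Slc39a6 (0.41) and Slc15a2 (-0.36) were not called.

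Slc25a5, the ADP/ATP exchanger, was measured by 8 probe sets, all with a log2 fold change above 0. The values ran from 0.10 to 1.32, and the 2 dimmest, at 1.13 and 1.32, were called. The brightest probe set of Slc25a51, a mitochondrial NAD carrier, had 0.04, another was called lower at -0.62 and the last had 0.34. The sulphate carrier Slc26a2 had -0.08 at its brightest, with a dim probe set called lower at -0.70. By any probe set, 5 carriers were called higher and 9 lower. Short of a call, several named genes also had a further probe set above the controls that gave no like change. These values were 0.18 and 0.19 for Slc35a2, whose remaining probe set had -0.32, then 0.01 for Slc2a4, -0.02 for Slc35a1, -0.01 and 0.16 for Slc12a2, and -0.13 for Slc9a8. Slc38a10 had values from -0.24 to 0.12 at its other probe sets above the controls.

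**Figure D4:**
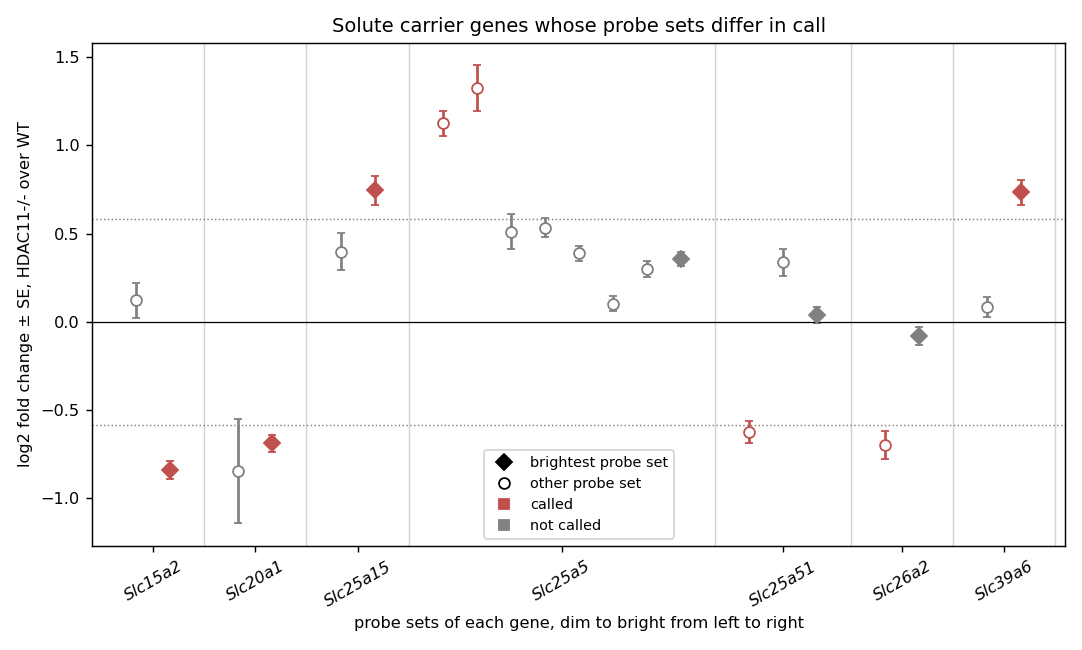
Log2 fold change of HDAC11-/- over WT (vertical axis, bars ± SE) for every probe set of the 7 carriers whose probe sets differ in call, ordered from dim to bright within a gene, with the brightest as a filled diamond and called ones in red. The probe sets of Slc25a51 spread from -0.62 to 0.34, whereas all 8 of Slc25a5 lie above 0.

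Genes of the solute carrier superfamily that carry other names were described by a list. Of 27 above the controls none was called higher and 3 were called lower, Sv2a (a synaptic vesicle protein, log2 fold change -0.99), Spns1 (a lysosomal lysophospholipid carrier, -0.70) and Cln3 (a lysosomal membrane protein, -0.61). By adjusted p 6 rose and 9 fell, with a median of -0.14. Of all genes above the controls 4.69% were called higher and 4.78% lower, and 31.6% rose and 25.8% fell. Mtch2 and Mpc1, the latter a subunit of the mitochondrial pyruvate carrier, rose by 0.55 and 0.50. Of 9 partner proteins and regulators above the controls none was called, 5 rose and none fell. Among them were Lrrc8c and Lrrc8a, subunits of the volume-regulated anion channel, at 0.40 and 0.30, Oxsr1, a kinase that acts on Slc12 carriers, at 0.39, and Bsg, the chaperone of lactate carriers, at 0.19.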

How the data were processed

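RNA was amplified, labelled with biotin and hybridised to 6 Affymetrix Mouse430A arrays, and the authors applied RMA, which corrects background, equalises the distributions of the arrays and summarises probes. The deposited values are on the log2 scale. A difference in total RNA per cell is removed by this step. For the probe definitions, a version is not given in the sources used. Of 22671 probe sets, 45 were controls. Among the other 22626, 20380 had 1 gene symbol in the platform annotation, 691 several and 1555 none here.

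Each probe set was fitted in R 4.3.3 with limma 3.58.1 (lmFit, then eBayes), comparing genotypes with no other term. The Benjamini-Hochberg adjustment covered every tested probe set. Substrate classes follow the family number, with single genes moved by known substrate, although Slc22a17 and Slc43a3 were left with their families. Named are the called genes, in each class of at least 5 genes above the controls the 2 brightest and up to 3 a direction by smallest adjusted p, Slc3a2 and its light chains, and genes whose probe sets differ in call. Other genes named, the within-array pairs and the motifs (9 were looked at, 2 are given) were chosen after values or matches were seen. The members and lists were chosen with earlier results of these data known. On simulated data for this comparison limma called 14 of 50 probe sets changed 1.5-fold, 45 of 50 raised 2-fold, 42 of 50 lowered 2-fold and 3 of 22426 unchanged. The 1.5-fold changes were set at the fold threshold itself, and 33 of those 50 passed the adjusted p. Far fewer probe sets were altered there than passed the adjusted p in the data, so these rates need not hold for the data.

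Precision is limited by the number of arrays, with a median SD of 0.09 (WT) and 0.07 (HDAC11-/-) in log2 units. Alternatives were a replicate block, array weights, SAM, a robust prior with trend, centring on bacterial controls or reference genes, filters on dim probe sets, other thresholds, other representations of a gene, and leaving out each array. A count of the members above the controls alone was added after the data were seen. Figures were drawn with matplotlib 3.10.9.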

Additional observations from a re-analysis of the deposited data

How the results depend on the processing

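The 4 genes called higher and 7 called lower were the same under SAM, a trend with a robust prior, array weights, the highest WT mean and a fit with the replicate block, which gave 4 and 7. Replicate numbers were not taken as pairs, since deviations of same-numbered arrays correlated at 0.23, -0.019 and 0.163 and not every array correlated best with its own number. Without each array in turn the counts ran from 4 to 5 higher and from 6 to 8 lower, with Slc9b2 lost without WT replicate 1 or HDAC11-/- replicate 2, and Slc1a4, Slc4a1 and Slc7a3 gained without WT replicate 1, HDAC11-/- replicate 1 and HDAC11-/- replicate 3 in that order. With no fold threshold there were 35 higher and 67 lower, and at 2-fold 0 and 0. Centred on reference genes there were 2 and 16, on bacterial controls 4 and 6. The median over all probe sets gave 2 higher. Without probe sets ending in _a_at, _s_at or _x_at 4 were lower. Slc25a28 and Slc22a17 then had no probe set left, and Slc20a1 had -0.85 with a limma adjusted p of 0.054. Without dimmer probe sets Slc6a13 was not tested. Class medians moved as follows with no filter on level: amino acids -0.15, lipids -0.074, organic ions -0.16, peptides and urea -0.062. At least 1 log2 unit above the controls they were -0.30 for inorganic ions, -0.40 for organic ions and -0.035 for vitamins, and inorganic ions had -0.21 with all 6 arrays above. With the median over probe sets, inorganic ions had -0.18, organic ions -0.13 and mitochondrial carriers 0.0045. Leaving out single arrays gave -0.22 to -0.14 for amino acids, -0.0067 to 0.070 for metals, -0.19 to -0.12 for sugars and -0.025 to 0.094 for vitamins, with metals negative without WT replicate 2 and vitamins negative without WT replicate 1 or HDAC11-/- replicate 1. Where a value moved, the cause was not tested.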

Other observations

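The probe set that names both Slc28a2b and Slc28a2, concentrative nucleoside carriers, belongs to no count above because it gives 2 symbols. It had a mean of 11.08 and a log2 fold change of -0.73 ± 0.05 (limma adjusted p = 6.87e-05), called lower, and its signal cannot be assigned to either gene. The other 2 probe sets that give an Slc symbol beside another were not called. They name Slc22a30 with Slc22a29 (-0.24, below the bacterial controls) and Slc9a7 with an unnamed transcript (0.00).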
